A study of Rattus norvegicus with 18 samples.

Results

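Kidneys of untreated spontaneously hypertensive rats (SHR) were compared with kidneys of untreated Wistar-Kyoto rats (WKY). The comparison was made up of the 12 libraries titled SHR or WKY, 6 per strain, of the 18 libraries in the series. The other 6, from SHR treated with isoliensinine (a daily dose of 5 mg/kg), were not analysed here. Both strains received double distilled water for 10 weeks, their genotype is labelled only by the strain name, and no age is given in the labels. Total RNA was depleted of ribosomal RNA before sequencing, so transcripts without a poly(A) tail could be captured beside messenger RNA. The series lists 6 samples in each strain without naming the animals, so the p-values below measure the spread between these samples.

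The SHR strain was bred from Wistar-Kyoto stock by selection for high blood pressure, and WKY is its usual normotensive control. The kidney sets long-term blood pressure through salt and water excretion and through renin release, and SHR kidneys transplanted into normotensive rats are known to raise their blood pressure. High pressure and genetic background differ together between these strains and cannot be told apart in this design.

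The 12 files shared 4005 transcript IDs, 828 of them Ensembl transcripts (ENSRNOT) and 3177 assembled by the authors from reads (MERGE, followed by a locus number and an isoform number). An Ensembl ID stands for an annotated transcript, and an assembled ID for a transcript model in the authors' merged assembly. The files pair neither kind with gene names, and 0 of the 4005 IDs matched the gene tables available for rat. Transcripts are therefore described by class, 2 per direction are named, and the kidney's defining marker genes could not be checked. In bulk tissue, fewer cells of a type and less RNA per cell cannot be told apart.

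The list was preselected for strain differences, and every count below describes that list, not the kidney transcriptome. In 3542 of the 4005 transcripts the arithmetic means of the strains differed at least 2-fold, and the higher mean was never below 0.5. At the lower edge, 264 transcripts had a fold of means from 2 to 2.2 and 1258 had a higher mean from 0.5 to 1. P-values were adjusted over the transcripts of this list alone and give no error rate over the transcriptome. Values are the authors' normalized abundances on a scale that the files do not state, and abundance classes below rank transcripts within these files only.

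Read totals are unknown, and a relative value of 1 read was fitted in each library from steps between low values of the same transcript. Of 20537 pairs of such values, 24.3% lay at a ratio of whole numbers up to 5, and the rest did not. The share to be met by chance was not computed, so the relative value of 1 read is an estimate. This value ran from 0.897 to 1.013 in WKY (mean 0.967 ± 0.0469, SD, n = 6) and from 1.015 to 1.054 in SHR (mean 1.04 ± 0.0152, SD, n = 6). The strains did not overlap, and the SHR mean was 1.07 times the WKY mean (exact permutation test, two-sided p = 0.00216, the smallest this design allows). On a per-million scale a lower value of 1 read means more reads, so WKY replicate 1, with the lowest value, would be the most deeply sequenced. Across transcripts on the log2(value + 1) scale, the correlation between libraries was 0.700 to 0.805 within WKY, 0.753 to 0.827 within SHR and 0.294 to 0.437 between strains. These correlations describe transcripts chosen for differing between the strains.

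Each named transcript was picked among transcripts called (limma adjusted p below 0.05), not overlapping between the strains and above 0 in all 12 libraries. Its mean level also had to reach the 25th percentile of those tested. The calls and the lack of overlap of the named transcripts were thus fixed by the choice. On the log2(value + 1) scale, the largest difference among such Ensembl transcripts was in ENSRNOT00000020039. In SHR its lowest value was 553.2, its median 739.3 and its highest 845.3. In WKY its lowest value was 7.66, its median 29.7 and its highest 32.6. Its lowest SHR value was 16.9 times its highest WKY value. It was the most abundant listed transcript in 4 of the 6 SHR libraries and held 3.37% to 4.74% of the summed values there. In WKY it held 0.0423% to 0.187% of the sum. The means were 717 ± 116 in SHR and 24.7 ± 9.99 in WKY (SD, n = 6 each). The difference was 4.92 ± 0.33 (SE) on the log2(value + 1) scale (limma adjusted p = 3.4e-08).

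ENSRNOT00000093669 went the other way. In WKY its lowest value was 15.9, its median 18.8 and its highest 31.7, the highest belonging to replicate 1. In SHR it was detected in every library at a low level, with a lowest value of 0.114, a median of 0.164 and a highest of 0.259. The lowest WKY value was 61.2 times the highest SHR value. The difference was -4.14 ± 0.21 (SE) on the log2(value + 1) scale (limma adjusted p = 2.69e-09), and the means of 20.2 ± 5.83 and 0.172 ± 0.0524 (SD, n = 6 each) differed 117-fold. By fold of means it thus exceeded ENSRNOT00000020039, whose means differed 29.0-fold, so the order of these transcripts depends on the scale.

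Among assembled transcripts, MERGE.17360.1 was higher in SHR. Its SHR values had a lowest of 30.0, a median of 37.3 and a highest of 51.9. Its WKY values had a lowest of 0.259, a median of 0.369 and a highest of 0.872. The groups were 34.4-fold apart at their nearest values, and the spread within each strain was small beside the difference of 4.75 ± 0.22 (SE; log2(value + 1) scale; limma adjusted p = 2e-09).

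MERGE.21673.1 was higher in WKY but not evenly so. Replicate 2 of WKY had a value of 1.34, while the other 5 WKY libraries had 40.2 to 51.9. The 6 SHR libraries had 0.00485 to 0.0193, so that even WKY replicate 2 lay 69.3 times above the highest of them. The difference was -4.80 ± 0.66 (SE; log2(value + 1) scale; limma adjusted p = 4.05e-05). Its SD in WKY, its higher strain, was 1.77 on this scale, against 0.29 for MERGE.17360.1 in SHR, the higher strain of that transcript. The plot of single values shows this library apart from its strain.

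**Figure D1:**
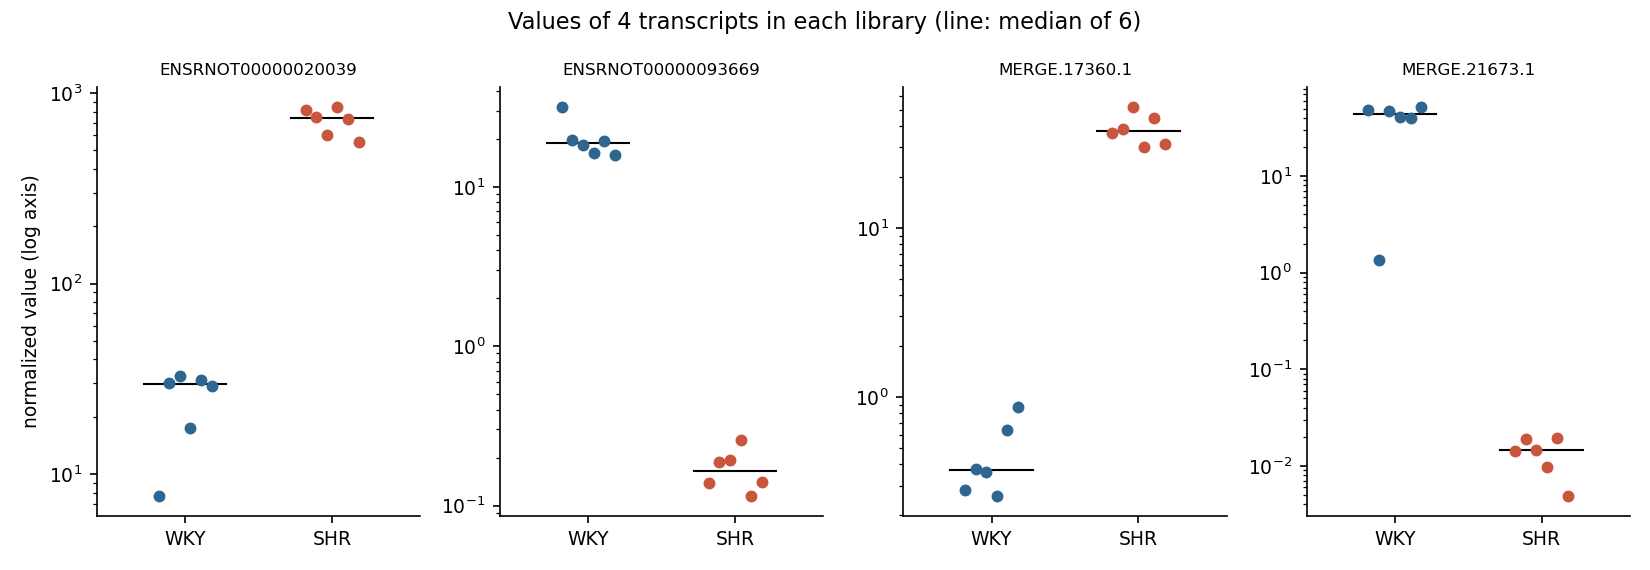
Normalized value (log axis) of 4 transcripts in each of the 12 libraries, with 1 point per library and a line at the median of 6. The transcripts were chosen for strains that do not overlap. WKY replicate 2 lies far below the other WKY libraries for MERGE.21673.1.

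Over the whole list, limma tested the 1657 transcripts that reached a value of 1 in 6 or more libraries and called 1368 of them (82.6%) at an adjusted p below 0.05. Of these, 647 were higher in SHR (39.0% of those tested) and 721 higher in WKY (43.5%). The majority turned without some WKY libraries, to 882 higher in SHR and 752 in WKY without WKY replicates 1 and 6. Without WKY replicate 6 alone the numbers were 750 and 709. The filter then asked for as many libraries as WKY had left, and transcripts higher in SHR still had 6 libraries to reach it. The turn can therefore not be told apart from this easing of the filter. The share called was nearly the same for both kinds of transcript. Among Ensembl transcripts 389 of 474 tested were called (82.1%), 202 higher in SHR and 187 higher in WKY. Among assembled transcripts 979 of 1183 were called (82.8%), 445 higher in SHR and 534 higher in WKY.

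The filter kept the classes unequally. It passed 57.2% of the 828 Ensembl transcripts but 37.2% of the 3177 assembled ones. Of the 2061 transcripts with a mean below 1 over the 12 libraries, 86 passed, and they could pass only where at least 6 libraries reached a value of 1. Of the 1452 with a mean from 1 to below 5, 1103 passed. From a mean of 5 to below 20, 347 of 368 passed, and at 20 and above, 121 of 124.

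Ensembl transcripts leaned slightly towards SHR and assembled ones towards WKY. Before any filter, 438 Ensembl transcripts had a higher log2 mean in SHR and 390 in WKY, so 52.9% were higher in SHR. For assembled transcripts the numbers were 1507 and 1670. The Ensembl lean was widest at a mean of 5 to below 20, with 73 higher in SHR and 51 higher in WKY. Below a mean of 1 the Ensembl transcripts were even, at 157 each. These balances were not tested.

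**Figure D2:**
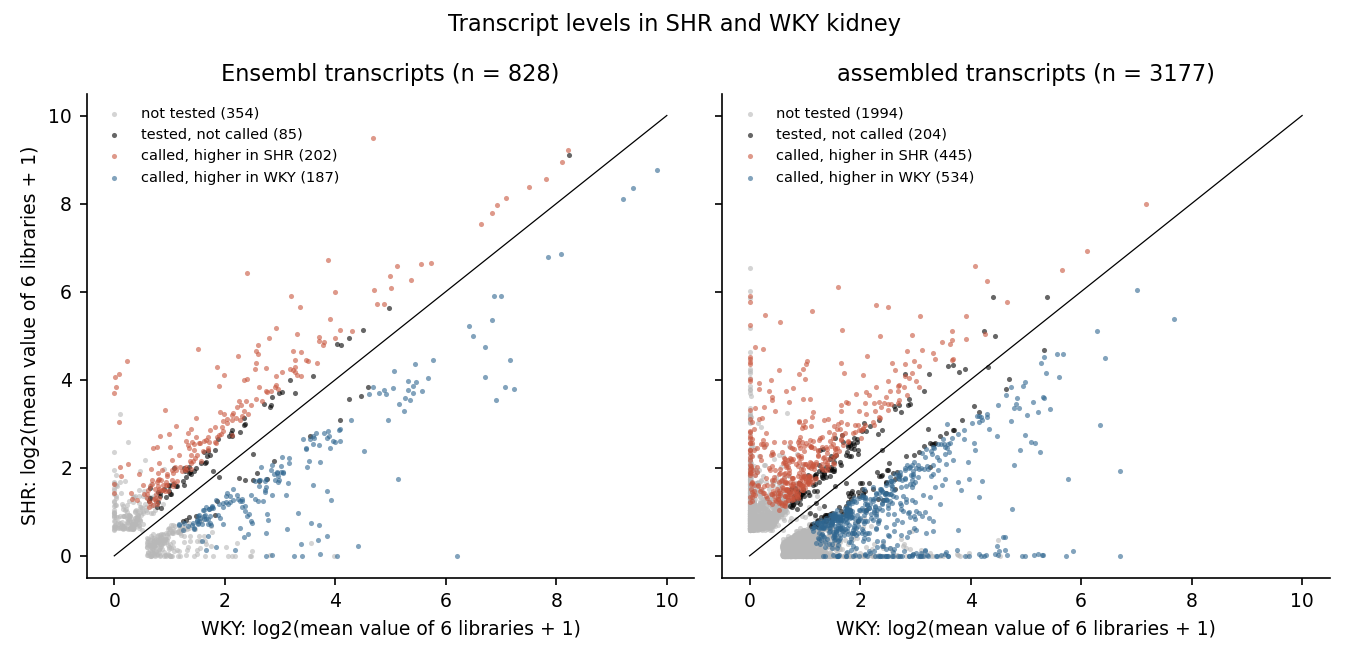
Mean level of each transcript in SHR against WKY, as log2 of the mean of 6 libraries plus 1, for the 828 Ensembl (left) and 3177 assembled (right) transcripts. Points thin out along the diagonal above the low levels, although 158 Ensembl and 305 assembled transcripts have means under 2-fold apart, and assembled transcripts crowd along both axes.

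Ensembl transcripts were the more abundant class. They were 20.7% of the list but 58.1% of the 124 transcripts with a mean of 20 or more, and 15.2% of those with a mean below 1. Of the summed values in a library they held 48.8% to 58.6% in WKY (median 52.0%) and 52.3% to 58.1% in SHR (median 56.0%), ranges that overlap. The 10 highest transcripts of a library held 21.5% to 29.0% of its sum in WKY and 22.2% to 29.2% in SHR. Of these 10, between 8 and 10 were Ensembl transcripts in each library of either strain.

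Assembled transcripts were far more often listed at 0. In WKY libraries 20.1% to 28.2% of assembled and 8.45% to 16.9% of Ensembl transcripts were at 0. In SHR libraries the shares were 21.9% to 27.0% and 9.06% to 13.6%. The share was larger for assembled transcripts in 12 of 12 libraries. A listed 0 may be an estimate that failed, so it is not read as absence.

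The gap between the classes held at each level of abundance. Of transcripts with a mean below 1, 40.1% of Ensembl and 22.6% of assembled ones were above 0 in all 12 libraries. From 1 to below 5 they were 58.8% and 40.4%, from 5 to below 20 77.4% and 47.5%, and at 20 and above 97.2% and 65.4%. Assembled transcripts also had larger folds between the strains. Their median fold of means was 5.38 against 2.72 for Ensembl transcripts. At a mean of 20 and above it was 3.41 against 2.40. Measured against the spread within strains, however, the classes were alike, since the median ratio of the log2 difference to the pooled SD was 1.76 for assembled and 1.74 for Ensembl transcripts.

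The values of the strains did not overlap for 1135 of the 4005 transcripts (28.3%), 512 higher in SHR (12.8%) and 623 higher in WKY (15.6%). This held for 225 of 828 Ensembl transcripts (27.2%) and 910 of 3177 assembled ones (28.6%). By abundance, it held for 554 of 2061 below a mean of 1, 406 of 1452 from 1 to below 5, 130 of 368 from 5 to below 20 and 45 of 124 at 20 and above. In each of these classes most transcripts therefore had strain ranges that met. The 1135 became 1722 without WKY replicates 1 and 6. It was 1432 without WKY replicate 1 alone and 1296 without SHR replicate 3, and fewer libraries leave less room for overlap by construction.

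Spread within a strain was measured as the SD of log2(value + 1) over its 6 libraries. Its median over the 4005 transcripts was 0.38 in WKY and 0.33 in SHR. An SD below 0.25 was found for 1289 transcripts in WKY and 1489 in SHR, and an SD of 1 or more for 402 and 352. Only 47 transcripts reached an SD of 1 in both strains, while 707 did so in at least 1 of them. WKY had the larger SD for 2210 transcripts, or 55.2%, and this share was 56.2% among Ensembl and 54.9% among assembled transcripts. Without WKY replicates 1 and 6 the number was 1898, or 47.4%. That count sets fewer WKY libraries against 6 of SHR. Leaving out libraries that stand apart also lowers the SD of their strain by construction, so no order of the strains is read from it.

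The call divides the strain difference by the spread, so the share called must fall as spread rises, and the counts are given as a description. These counts cover the 1657 tested transcripts only. With both SDs below 0.25, 97 of 97 were called and 96 did not overlap. With the larger SD from 0.5 to below 1, 594 of 717 (82.8%) were called and 140 did not overlap. With a larger SD of 1 or more, 247 of 410 (60.2%) were called and 33 did not overlap. The least and most variable of the tested transcripts differed little in the size of the strain difference, with median absolute log2 differences of 1.27 and 1.38. Over the whole list, 393 transcripts had both SDs below 0.25 and 707 had an SD of 1 or more in at least 1 strain. Those not tested are left out of this comparison.

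Which strain was the more variable one depended on abundance. Below a mean of 1 the strain with the higher level had the larger median SD, 0.40 against 0.14, and the log2(value + 1) scale compresses values near 0. From a mean of 5 to below 20 the order turned round. There the median SD was 0.76 in the strain with the lower level and 0.44 in the strain with the higher level. At 20 and above it was 0.70 and 0.42. The lower strain had the larger SD for 237 of the 368 transcripts with a mean of 5 to below 20 and for 83 of the 124 at 20 and above. The lower strain was set by its log2 mean, and a low library both lowers that mean and raises the SD. The order is thus partly built into the measure and is given as a description.

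The turn was seen in both kinds of transcript, but at a lower mean for Ensembl ones. At a mean of 1 to below 5 the Ensembl medians were 0.54 in the lower and 0.43 in the higher strain. The lower strain had the larger SD for 190 of 318. For assembled transcripts the medians there were 0.43 and 0.49, with the larger SD in the lower strain for 504 of 1134. At a mean of 5 to below 20 the medians were 0.70 in the lower and 0.33 in the higher strain for Ensembl transcripts, and 0.78 and 0.52 for assembled ones. The strains were unequal in it. For the 38 Ensembl transcripts with a mean of 20 or more and higher in SHR, the median SD was 0.81 in WKY and 0.33 in SHR, and 33 of the 38 varied more in WKY. For the 34 higher in WKY the medians were 0.55 in SHR and 0.50 in WKY, with 18 varying more in SHR, or 14 without SHR replicate 3. This inequality changed when WKY replicates 1 and 6 were left out. That step lowers the SD of WKY by construction, and no other pair of libraries was left out for comparison. Without replicates 1 and 6, 25 of the 38 varied more in WKY, with medians of 0.44 and 0.33. Of the 34, 27 varied more in SHR, with medians of 0.55 and 0.24. The turn itself was also seen without them, with the larger SD in the lower strain for 232 of 368 and 88 of 124 transcripts.

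**Figure D3:**
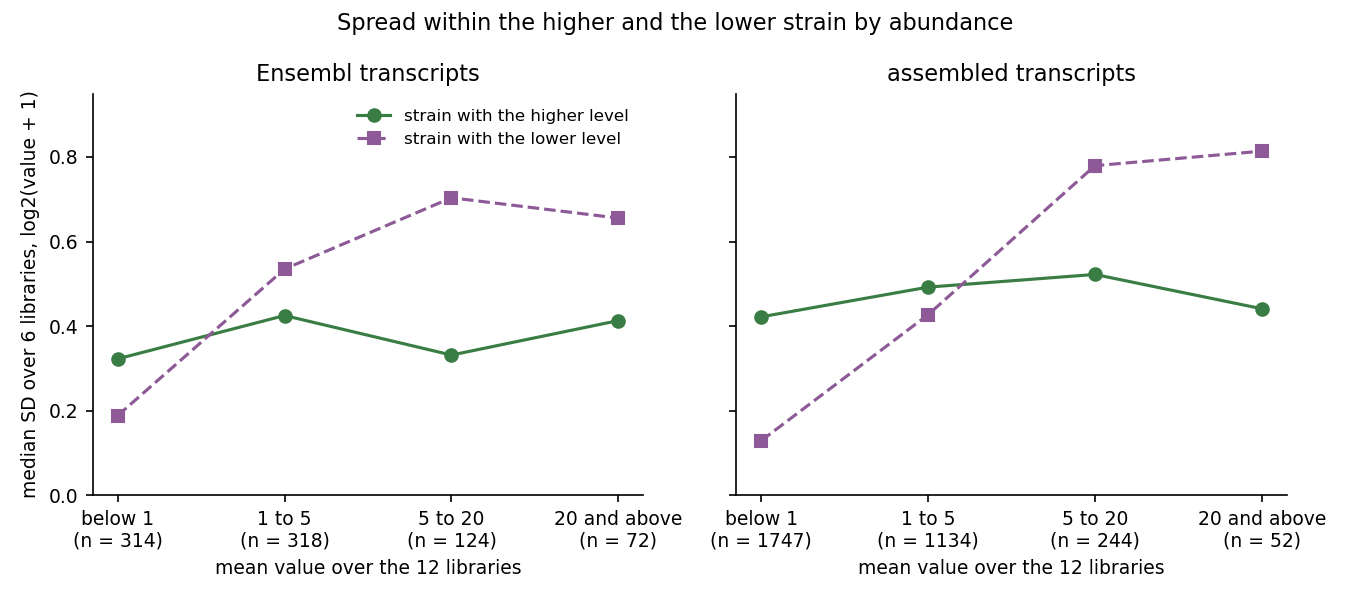
Median SD over 6 libraries on the log2(value + 1) scale, by mean value over the 12 libraries, for the strain with the higher level (circles, solid) and the strain with the lower level (squares, dashed). The lines cross between the low and the abundant classes, from 0.40 against 0.14 below a mean of 1 to 0.42 against 0.70 at 20 and above over both kinds of transcript.

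Single values were also set against the range of the other strain. Of the 492 transcripts with a mean of 5 or more, 474 were above 0 in all 6 libraries of the higher strain. For 175 of these 474 no library of the lower strain reached the higher strain's range. For 84, 98 and 90 of them exactly 1, 2 or 3 libraries of the lower strain did, and for 27 between 4 and 6 did. In 272 of the 474, or 57.4%, 1 to 3 libraries of the lower strain thus lay at or above the lowest value of the higher strain. A single low library of the higher strain widens its range, so these libraries need not be at its usual level. The share was 58.5% of 195 Ensembl and 56.6% of 279 assembled transcripts. It was not particular to abundant transcripts. Of the 2746 with a mean below 5 that were above 0 in all 6 libraries of the higher strain, 1613 (58.7%) were of the same kind. The 175 of the 474 without a library of the lower strain in the higher strain's range became 271 without WKY replicates 1 and 6. Without SHR replicate 3 they became 199. Leaving out libraries can only raise this number, so it is not read as due to them.

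The WKY libraries did not reach the SHR range equally often. At the 111 Ensembl transcripts of this group that were higher in SHR, WKY replicate 1 lay within or above the SHR range for 50 and replicate 6 for 43. Replicates 2, 3 and 4 did so for 20 to 23, and replicate 5 for 5. The assembled transcripts were more even over the libraries. At the 130 that were higher in SHR, the 6 WKY libraries reached the SHR range for 25 to 34. In the reverse direction, the 6 SHR libraries reached the WKY range for 13 to 23 of 84 Ensembl and for 33 to 46 of 149 assembled transcripts, with replicates 3 and 4 highest in both.

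**Figure D4:**
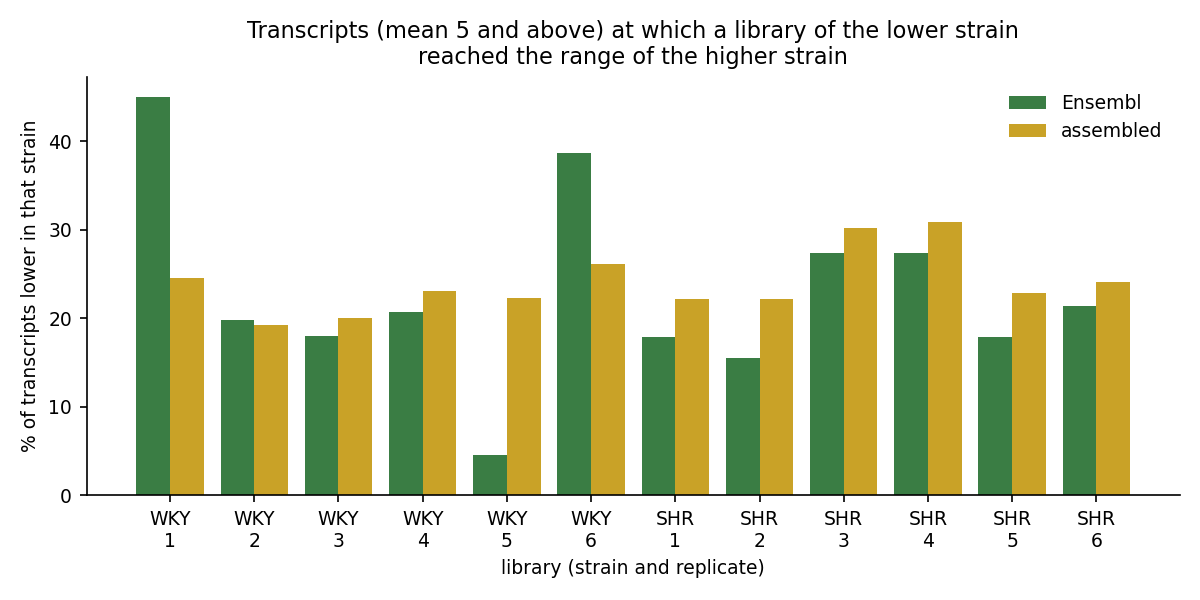
Percentage of transcripts (mean of 5 or more, above 0 in all 6 libraries of the higher strain) at which each library of the lower strain reached the higher strain's range, for Ensembl (green) and assembled (yellow) transcripts. Ensembl transcripts set WKY replicates 1 and 6 (50 and 43 of 111 transcripts) apart from replicate 5 (5 of 111).

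Over all 4005 transcripts each library was set against the mean of the other 5 libraries of its strain and the mean of the other strain. WKY replicate 1 was nearer to SHR for 1148 transcripts (28.7%) and replicate 6 for 874 (21.8%), against 540 to 655 in the other 4. SHR replicate 3 was nearer to WKY for 883, against 630 to 673 in the other 5. These 3 libraries stood out in Ensembl transcripts more than in assembled ones. Their Ensembl shares were 32.0%, 24.0% and 26.8%, and their assembled shares 27.8%, 21.2% and 20.8%.

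WKY replicates 1 and 6 shared 331 of these transcripts, which is 28.8% of the 1148 of replicate 1 and 37.9% of the 874 of replicate 6. Over the whole list the shares of replicates 6 and 1 were 21.8% and 28.7%, as given above. WKY replicate 1 and SHR replicate 3 had 242 in common, 21.1% of the 1148 and 27.4% of the 883. The balance of directions differed between the WKY libraries. Replicate 1 was nearer to SHR for 35.3% of the transcripts higher in WKY and 21.6% of those higher in SHR. For replicate 6 the shares were 21.0% and 22.7%. WKY replicate 1 had the lowest relative value of 1 read, and SHR replicate 3, at 1.05, was among the highest. WKY replicate 6, at 1.00, was not at either end, and the part of depth in these departures was not tested.

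**Figure D5:**
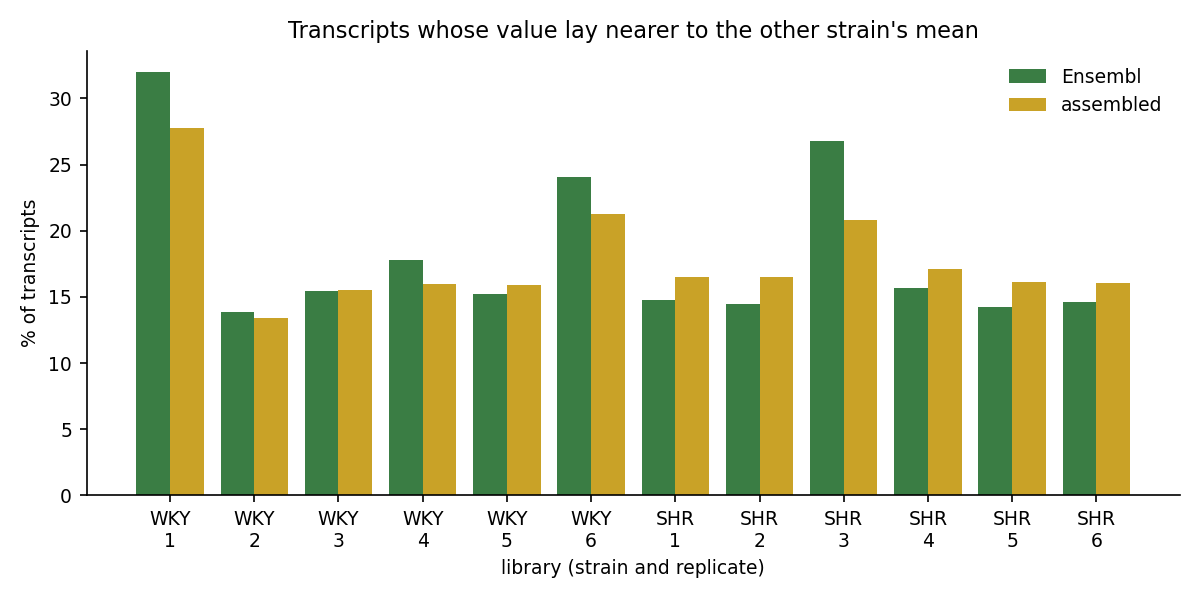
Percentage of the 828 Ensembl (green) and 3177 assembled (yellow) transcripts whose log2(value + 1) in a library lay nearer to the mean of the other strain than to the mean of the other 5 libraries of its own strain. WKY replicate 1 (32.0% and 27.8%), WKY replicate 6 and SHR replicate 3 stand above the other libraries.

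Some transcripts were listed at 0 in part of a strain's libraries and well above 0 in others. Transcripts listed at 0 in at least 1 library of a strain and at a value of 5 or more in another library of it numbered 190 in WKY and 175 in SHR. Assembled transcripts made up 155 (81.6%) and 153 (87.4%) of these, beside 79.3% of the whole list, which holds many transcripts below a value of 5. At a mean of 1 to below 5 the pattern was found in WKY for 88 of 1134 assembled and 19 of 318 Ensembl transcripts. In SHR it was found for 88 and 12. From 5 to below 20 the numbers were 37 of 244 and 14 of 124 in WKY, and 44 and 9 in SHR. In WKY 50 of the 190 had 1 library at 0, 67 had 2 and 52 had 3. In SHR the numbers were 59, 67 and 39 of 175. Most of them thus had more than 1 library at 0. WKY replicate 5 was at 0 for 112 of the 190 and replicate 6 for 39, while the SHR libraries ranged from 50 to 73. Without WKY replicates 1 and 6 the WKY number was 134. The pattern was found in both strains for 5 transcripts.

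In 463 of the 4005 transcripts, or 11.6%, the arithmetic means of the strains differed less than 2-fold. This was so for 158 Ensembl (19.1%) and 305 assembled transcripts (9.60%). Their median SD was 0.82 in the lower strain and 0.31 in the higher one on the log2(value + 1) scale. The choice of transcripts with like arithmetic means and unlike log2 means fixes this order, so it is given as a description. In 221 of the 463 (47.7%) a library of the lower strain was listed at 0, a smaller share than the 63.0% over the whole list. Of the 350 that were tested, 125 were called, and for 7 of the 463 the arithmetic mean was higher in the strain with the lower log2 mean. For these transcripts the mean of logs and the mean of values describe the strain difference differently.

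Assembled transcripts came from 2474 loci, of which 2080 had 1 listed transcript and 394 had 2 or more, up to 28 at 1 locus. Transcripts higher in SHR and transcripts higher in WKY occurred together at 166 of the 394 loci (42.1%). The share to be met by chance was not computed. For 116 of these 166 the summed means of the listed transcripts differed less than 2-fold between the strains. Since these loci were chosen for opposed directions, the sums partly cancel by construction, and only listed transcripts enter them. Transcripts of 1 locus can share reads, so that the authors' quantification may have divided the reads between them, and they are not independent.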

How the data were processed

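Kidney RNA of 6 WKY and 6 SHR libraries was analysed, grouped by title. The deposited value for each transcript is a normalized signal computed by the authors. For its scale, aligner, quantifier, build and annotation, the sources used here give none. Limma is named, with no version, in the submitters' processing notes.

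Limma 3.58.1 in R 4.3.3 (trended prior, robust) was fitted to log2(value + 1) over the 12 libraries, for transcripts that reached a value of 1 in 6 or more libraries, or in as many as the smaller strain had where libraries were left out. Two-sided p-values were adjusted by the Benjamini-Hochberg method. The test was checked on simulated data. The relative value of 1 read was fitted to ratios of values below 0.5, and 64 of 66 library pairs followed 1 solution within 0.02 (log2). Of 20537 such pairs of values, 24.3% lay within 0.005 (log2) of a ratio of whole numbers up to 5. Depth is otherwise unknown, and no counting interval was computed.

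The named transcripts were those with the largest difference per ID class and direction among transcripts called, not overlapping, above 0 in all 12 libraries and at or above the 25th percentile of mean level. Groups, classes and lists were chosen with earlier results of these data known. Gene lists could not be used, since 0 IDs matched the gene tables (assembly GRCr8). Alternatives are given in the closing section. The range counts, the transcripts under 2-fold and the relative value of 1 read were added after the data were examined.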

Additional observations from a re-analysis of the deposited data

Results flagged for a closer look

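In 26 groups of 6 libraries checked, 5 had a library far from the other 5, where chance marks about 1 in 20. The groups were not independent, since SHR replicate 3 appears for both ID classes and the named transcripts were picked for large differences. No excess over chance is therefore read from this number. ENSRNOT00000093669 had a value of 31.67 in WKY replicate 1 against 15.86 to 19.69 in the other WKY libraries. MERGE.21673.1 had 1.338 in WKY replicate 2 against 40.17 to 51.89. SHR replicate 3 was nearer to the WKY mean for 26.81% of Ensembl transcripts, against 14.25% to 15.7% in the other SHR libraries, and for 20.81% of assembled ones, against 16.02% to 17.09%. The 10 highest transcripts held 22.25% of the summed values in SHR replicate 6 and 27.08% to 29.2% in the other SHR libraries.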

How the results depend on the processing

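The number of transcripts called, 1368, was 3102 without a filter (640 Ensembl, 2462 assembled) and 404 with a filter at 5 (174 and 230), as more or fewer transcripts were tested. With a log2 difference of at least 1, 254 of the 389 Ensembl calls were left, and 918 in all. Leaving out each library in turn gave 1333 to 1502 calls among 1815 to 1877 tested, against 1368 of 1657 with all libraries. These calls were 347 to 408 Ensembl and 981 to 1094 assembled. The filter then asked for fewer libraries, so more transcripts were tested and a smaller share was called. Leaving out each library in turn also gave 1207 to 1432 transcripts without overlap and 2048 to 2308 with a larger SD in WKY. On the filtered transcripts the latter numbers were 559 and 961. Without WKY replicates 1 and 6, 1722 transcripts did not overlap and 1898 had the larger SD in WKY, which then had fewer libraries than SHR. Without SHR replicate 3 as well, chosen after seeing the data, these were 1920 and 1984. With the replicate number as a block, 1316 were called. Same-numbered libraries had correlations of -0.06 to 0.10 between their deviations from the strain means, and 2 of 6 WKY and 3 of 6 SHR libraries correlated best with their own number, so the samples were not treated as paired. The block changed the call of no named transcript. Without WKY replicates 1, 2, 3, 4 or 6 in turn, calls higher in SHR outnumbered those higher in WKY (752 against 750, 674 against 659, 679 against 666, 704 against 670 and 750 against 709). Without replicate 5 (661 against 687) or any SHR library they did not. Calls higher in SHR were 647 of 1368, 690 of 1380 after quantile normalization and 571 of 1330 after dividing values by the relative value of 1 read, a scaling added after seeing the data. The median log2 difference of tested transcripts moved from 0.38 to 0.42 and -0.51 under these scalings, in a list with few differences near 0. The named transcripts kept their direction and adjusted p below 0.05 under each alternative that tested them, with a highest adjusted p of 0.00143 for MERGE.21673.1, which the filter at 5 left out. Depth limits what can be said of values near 0, since the reads behind them are unknown.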
